A study of Mus musculus with 2 samples.

Results

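The nucleosome remodelling and deacetylase (NuRD) complex is a known partner of Ikaros, the zinc finger factor encoded by Ikzf1. The 10 genes described here encode its core subunits and were taken by symbol from the gene rows of both deposited matrices, where all 10 were found among 31053 genes. They are the remodellers Chd4 and Chd3, the histone deacetylases Hdac1 and Hdac2, the scaffolds Mta1 and Mta2, the methyl-CpG-binding domain proteins Mbd2 and Mbd3, and the bridging proteins Gatad2a and Gatad2b. The rule names them by symbol and uses no measured value. All 10 had at least 1311 UMIs in each library, so none was lost to a filter on low values.

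The study sequenced single cells of mouse thymus, sorted as EPCAM-positive and Ly51-negative medullary thymic epithelial cells (mTECs), with a 10x Genomics 3' kit. It asked how Ikaros acts in mTECs, which present tissue antigens to developing T cells. There were 2 libraries, 1 per genotype, labelled Foxn1-Cre(+) Ikarosfl/fl (fl/fl below) and Foxn1-Cre(+) Ikaros+/fl (+/fl below), with age, sex and number of mice not stated in the labels. Both carried the Cre transgene, driven by the Foxn1 promoter, which is active in thymic epithelium and not in blood-derived cells, and the +/fl mice carried 1 floxed allele, so no group is free of Cre or of a floxed allele. The matrix names chosen by the submitters contradict these labels, calling the library labelled fl/fl a control and the library labelled +/fl a knockout. Every direction below therefore holds between the libraries as labelled. Ikzf1 itself had 37.7 CPM (UMIs per 1000000; 95% interval 36.4 to 39.1) in the library labelled fl/fl and 64.5 CPM (62.6 to 66.4) in the library labelled +/fl. Tags from the 3' end need not lie in the deleted part, whose exons the labels do not give, so this level does not settle the labels.

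With 1 library per genotype there was no replicate check and no test. The intervals given are exact 95% intervals of the counts (Poisson for levels, binomial for shares) and cover counting error only. A difference is described as beyond counting error where the intervals do not overlap, which does not make it a difference between genotypes. The libraries also differed in sex-linked genes. Xist, expressed from the inactive X chromosome of females, had 0.902 CPM labelled fl/fl and 1317 CPM labelled +/fl, and the Y-linked Ddx3y had 64.5 CPM labelled fl/fl and 0 UMIs (95% upper bound 0.0553 CPM) labelled +/fl. Genotype and sex cannot be told apart here.

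NuRD joins 2 enzyme activities in one assembly. CHD4 or CHD3 (Mi-2β or Mi-2α) slides nucleosomes with the energy of ATP, and HDAC1 and HDAC2 remove acetyl groups from histone tails. MTA proteins hold the deacetylases, MBD2 and MBD3 occur in separate forms of the complex, with MBD2 binding methylated CpG, and GATAD2A or GATAD2B links the deacetylase module to the remodeller. In lymphocytes Ikaros binds Mi-2β and brings NuRD to chromatin, and in mTECs CHD4 is known to act with the factor Fezf2 in the expression of tissue antigens.

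On the GRCm38 assembly (GENCODE M21) the members lie on 10 different loci. Chd4 (ENSMUSG00000063870) is at chr6:125095981-125130591 on the plus strand and Chd3 (ENSMUSG00000018474) at chr11:69343273-69369406 on the minus strand. Hdac1 (ENSMUSG00000028800) is at chr4:129516104-129542713 on the minus strand and Hdac2 (ENSMUSG00000019777) at chr10:36974544-37001889 on the plus strand. Mta1 (ENSMUSG00000021144) is at chr12:113098278-113137206 and Mta2 (ENSMUSG00000071646) at chr19:8941875-8952303, both on the plus strand. Mbd2 (ENSMUSG00000024513) lies on the plus strand, and Mbd3 (ENSMUSG00000035478) is at chr10:80392539-80399550 on the minus strand. Gatad2a (ENSMUSG00000036180) is at chr8:69907076-69996384 on the minus strand and Gatad2b (ENSMUSG00000042390) at chr3:90293178-90363407 on the plus strand. All are autosomal, so unlike X-linked subunits none lies on a sex chromosome.

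Ikaros-family proteins bind a core of GGGAA, which was searched on both strands of the RefSeq promoter table (GRCm38.p6), over windows of 300 bases with 250 before the start site and 50 after it. Chd3, Hdac1 and Mbd2 were not searched. Of the 7 members searched, 1 window held the core (Gatad2a), against 62.3% of 27025 promoters of the same length. The 7 windows held 17 to 50 CpG dinucleotides, against a median of 7 over all promoters. These matches describe letters only. Of the 5 cell classes compared below, Chd4 was highest in tuft-like cells, and Hdac2 and Mbd3 in cycling-like cells. The 250 bases before the start are shown for Chd4, Hdac2, Mbd3 and Gatad2a, whose capitals mark the core (TTCCC, the core read on the other strand). Each reads 5' to 3' on the strand of its gene, from chr6:125095731-125095980 (plus), chr10:36974294-36974543 (plus), chr10:80399532-80399781 (minus) and chr8:69996385-69996634 (minus) in that order.
Chd4: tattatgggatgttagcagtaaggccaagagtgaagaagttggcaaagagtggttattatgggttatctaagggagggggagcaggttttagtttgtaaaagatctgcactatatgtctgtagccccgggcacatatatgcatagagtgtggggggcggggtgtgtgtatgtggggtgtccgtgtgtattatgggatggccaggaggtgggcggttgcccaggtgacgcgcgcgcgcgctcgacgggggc
Hdac2: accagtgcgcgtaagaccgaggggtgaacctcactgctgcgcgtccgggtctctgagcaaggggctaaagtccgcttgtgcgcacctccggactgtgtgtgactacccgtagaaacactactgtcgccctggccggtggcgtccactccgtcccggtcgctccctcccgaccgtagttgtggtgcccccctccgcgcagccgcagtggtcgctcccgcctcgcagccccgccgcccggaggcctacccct
Mbd3: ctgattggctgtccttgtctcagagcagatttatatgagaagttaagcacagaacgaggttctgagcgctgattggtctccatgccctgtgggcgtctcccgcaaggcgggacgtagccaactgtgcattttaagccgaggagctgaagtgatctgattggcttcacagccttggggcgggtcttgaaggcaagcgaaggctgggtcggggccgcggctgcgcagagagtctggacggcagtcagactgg
Gatad2a: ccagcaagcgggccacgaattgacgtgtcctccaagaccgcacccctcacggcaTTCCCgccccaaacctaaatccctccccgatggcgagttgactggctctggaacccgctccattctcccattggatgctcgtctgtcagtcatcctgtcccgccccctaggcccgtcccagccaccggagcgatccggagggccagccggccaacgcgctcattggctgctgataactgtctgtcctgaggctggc

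The library labelled fl/fl held 7669 cells after filtering with a median of 8187 UMIs, and the library labelled +/fl held 4891 with a median of 10731. The libraries shared 25 barcodes, 10 of them among kept cells. Cells were clustered without the 10 members among the genes used, and clusters were named for their likeness to fixed marker lists. Only classes that reached 100 cells in each library were compared. They were Aire-stage-like cells (clusters 2 and 3), with 3105 cells in the library labelled fl/fl and 135 in the library labelled +/fl. Immature-like cells, the Ccl21a-expressing clusters 4 and 5, had 1553 and 989 cells in the same order. Cycling-like cells (cluster 13) had 185 and 137, and tuft-like cells (clusters 0 and 12) had 812 and 1801. Myeloid and dendritic-like cells (clusters 10 and 14) had 322 and 360, and express Ptprc and less Epcam, with 356 and 418 CPM in their clusters against 949 to 2074 CPM in the other 7. T-lineage-like cells (cluster 9) had 118 and 85 cells. Both kinds are blood-derived and were present although the gate should remove them, and Foxn1-Cre should not delete Ikzf1 in them.

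Across the classes no member was restricted to 1 cell type. Each was found in every class of both libraries, and the highest class was 1.64 to 3.28 times the lowest in the library labelled fl/fl and 1.56 to 2.97 times in the library labelled +/fl. With 1 CPM added, the median of this ratio over the members was 2.40 in the library labelled fl/fl and 2.24 in the library labelled +/fl, against 2.51 and 2.41 over the 6420 genes with at least 20 CPM on average. Of the 10 members 5 lay above that median of all genes in the library labelled fl/fl and 3 in the library labelled +/fl. For 7 of the 10 the same class was highest in both libraries. That share was not taken over all genes, so the count is not read as a result about the members. Among these 5 classes, Chd4, Hdac1 and Mta2 were highest in tuft-like cells, Chd3 and Mta1 in immature-like cells, and Hdac2 and Mbd3 in cycling-like cells. Some of these first places do not hold once smaller groups are counted. T-lineage-like cells had 125 and 146 CPM of Hdac1 and 214 and 138 CPM of Chd3, with the library labelled fl/fl first. In the same order they had 28.5 and 51.1 CPM of Mta1 and 53.5 and 79.2 CPM of Mta2. Ciliated-like cells (cluster 18) had 69.4 and 136 CPM of Hdac2. Mbd2, Gatad2a and Gatad2b had different highest classes in the 2 libraries. The plot of levels by class shows each member on its own scale, and levels of different members are not compared there.

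**Figure D1:**
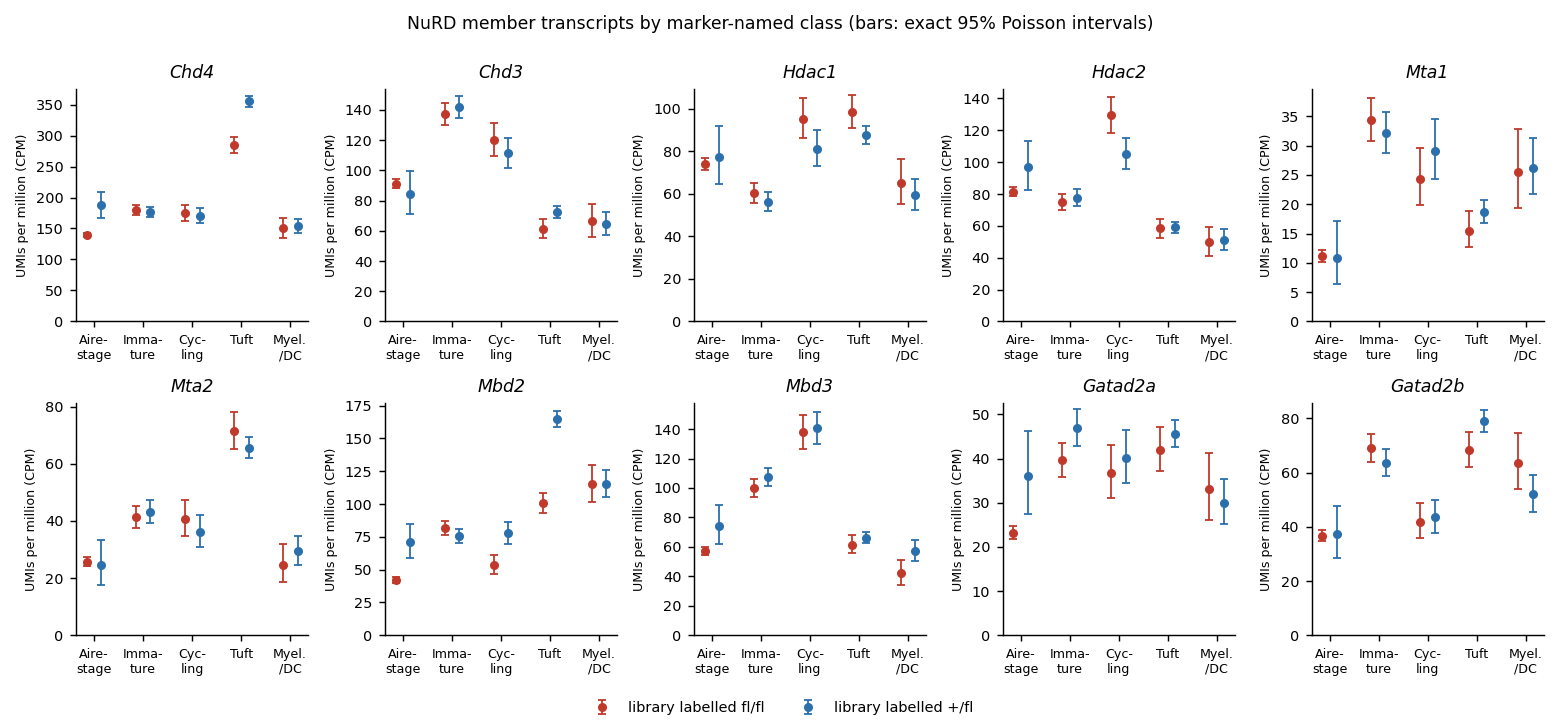
Level of each NuRD member (UMIs per 1000000 on the vertical axis) in 5 marker-named classes, with the library labelled fl/fl in red to the left of the library labelled +/fl in blue and exact 95% Poisson intervals as bars. Chd4 stands highest in tuft-like cells in both libraries (284 and 355 CPM), Chd3 in immature-like cells (137 and 142 CPM) and Mbd3 in cycling-like cells (138 and 140.5 CPM).

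Chd4, the Mi-2β remodeller, stood out in tuft-like cells, chemosensory epithelial cells that resemble the tuft cells of gut and airway. Its level there was 284 CPM (95% interval 272 to 298) in the library labelled fl/fl and 355 CPM (346 to 364) in the library labelled +/fl. In the other 4 classes it lay between 139.7 and 179 CPM labelled fl/fl and between 153 and 187 CPM in the library labelled +/fl. The tuft-like interval overlapped none of these 4 in either library. These 4 classes stood in different orders in the libraries, and each overlapped the next one in its order. Groups outside the 5 classes did reach the tuft-like level, but not in both libraries. T-lineage-like cells did so in the library labelled fl/fl, and cluster 8 in the library labelled +/fl. T-lineage-like cells had 335 CPM (289 to 387) labelled fl/fl and 280 CPM (248 to 316) labelled +/fl. Cluster 8, led by kallikrein genes, had 222 CPM (208 to 237) labelled fl/fl and 353 CPM (301 to 411) labelled +/fl.

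Chd3, the Mi-2α remodeller, was highest in immature-like cells, with 137 CPM (130.2 to 145) in the library labelled fl/fl and 142 CPM (135 to 149) in the library labelled +/fl. Cycling-like cells came next, at 120.1 CPM labelled fl/fl and 111 CPM labelled +/fl. Aire-stage-like cells had 91.1 and 84.6 CPM, tuft-like cells 61.3 and 72.6 CPM, and myeloid and dendritic-like cells 66.2 and 64.6 CPM in the same library order. The immature-like interval met that of cycling-like cells in the library labelled fl/fl and stood apart in the library labelled +/fl. The antisense neighbour Chd3os, which lies beside Chd3 without overlapping it, had 5.38 CPM labelled fl/fl and 3.42 CPM labelled +/fl.

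Among the deacetylases, Hdac1 varied least of the members over the classes. It was highest in tuft-like cells, at 98.6 CPM (91.1 to 107) in the library labelled fl/fl and 87.7 CPM (83.5 to 92.0) in the library labelled +/fl, and lowest in immature-like cells, at 60.3 CPM (55.7 to 65.2) and 56.4 CPM (52.0 to 61.1). The tuft-like and cycling-like intervals overlapped in both libraries, so the top of this order is not settled. A near-identical copy, Gm10093, shares 80.4% of its 50-base stretches with Hdac1 transcripts, and took 29 UMIs in the library labelled fl/fl and 26 in the library labelled +/fl, against 6054 and 4855 for Hdac1.

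Hdac2, the second deacetylase, was highest in cycling-like cells. The level was 129 CPM (119 to 141) in the library labelled fl/fl and 105 CPM (95.9 to 115) in the library labelled +/fl. Aire-stage-like cells followed at 81.3 and 97.2 CPM, immature-like cells at 74.9 and 77.4 CPM, tuft-like cells at 58.4 and 59.1 CPM, and myeloid and dendritic-like cells at 49.6 and 51.1 CPM. The first place stood apart from the second in the library labelled fl/fl, and in the library labelled +/fl the 2 intervals overlapped. Tuft-like and myeloid and dendritic-like cells stayed below immature-like cells in both libraries.

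The scaffold genes Mta1 and Mta2 differed in where they peaked. Mta1 had 34.3 CPM (30.9 to 38.1) in immature-like cells of the library labelled fl/fl and 32.1 CPM (28.8 to 35.7) in those of the library labelled +/fl. It had 11.1 CPM (10.1 to 12.2) in Aire-stage-like cells labelled fl/fl and 10.8 CPM (6.40 to 17.1), from 18 UMIs, in those labelled +/fl. Aire-stage-like cells were the lowest class for Mta1 in both libraries. Mta2 peaked in tuft-like cells, at 71.4 CPM (65.1 to 78.2) in the library labelled fl/fl and 65.4 CPM (61.8 to 69.2) in the library labelled +/fl. The next class, immature-like cells, had 41.2 CPM (37.4 to 45.3) in the library labelled fl/fl and 43.1 CPM (39.2 to 47.2) in the library labelled +/fl, so the tuft-like peak of Mta2 stood apart in both.

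Mbd2, the subunit that recognises methylated CpG, had an order that differed between the libraries. Tuft-like cells had 100.5 CPM (92.9 to 108) in the library labelled fl/fl and 165 CPM (159 to 171) in the library labelled +/fl. Myeloid and dendritic-like cells had 115 CPM in both (102 to 130 labelled fl/fl, 106 to 126 labelled +/fl). The tuft-like level was thus second of 5 in the library labelled fl/fl, overlapping the first, and first in the library labelled +/fl with no overlap. Aire-stage-like cells were lowest in both, with 42.1 CPM (40.0 to 44.2) in the library labelled fl/fl and 70.8 CPM (58.6 to 84.8) in the library labelled +/fl. Mbd3, which is found in NuRD complexes without MBD2, kept its order at the top. It had 138 CPM (127 to 150) in cycling-like cells labelled fl/fl and 140.5 CPM (129.8 to 152) in those labelled +/fl, then 100.2 and 107 CPM in immature-like cells. Both steps exceeded counting error in both libraries. Its lowest class was myeloid and dendritic-like cells, at 42.0 CPM (34.1 to 51.1) in the library labelled fl/fl and 57.5 CPM (50.7 to 64.9) in the library labelled +/fl.

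The highest class of the bridging genes was 1.81 (Gatad2a) and 1.88 (Gatad2b) times the lowest in the library labelled fl/fl, and 1.56 and 2.12 times in the library labelled +/fl. Gatad2a lay between 23.2 CPM in Aire-stage-like cells and 41.9 CPM in tuft-like cells of the library labelled fl/fl, and between 29.97 CPM in myeloid and dendritic-like cells and 46.8 CPM in immature-like cells of the library labelled +/fl. The tuft-like, immature-like and cycling-like intervals each overlapped the next in both libraries. Gatad2b was lowest in Aire-stage-like cells in both, at 36.7 CPM (34.8 to 38.7) labelled fl/fl and 37.2 CPM (28.5 to 47.7) labelled +/fl. Its tuft-like level was 68.2 CPM (62.0 to 74.9) in the library labelled fl/fl and 78.9 CPM (74.9 to 83.0) in the library labelled +/fl, and its immature-like level was 69.0 CPM (64.1 to 74.2) and 63.6 CPM (58.9 to 68.6). Those 2 classes overlapped in the library labelled fl/fl and stood apart in the library labelled +/fl.

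Because the subunits come as paralog pairs, the share of each pair's UMIs was also taken, which does not depend on the library total. Capture at the 3' end may differ between 2 transcripts, so a share is compared between classes and not read as a protein ratio. Chd4 took 82.3% (80.6 to 83.8) of the Chd4 and Chd3 UMIs in tuft-like cells labelled fl/fl and 83.0% (82.2 to 83.8) in those labelled +/fl. In immature-like cells it took 56.6% (54.9 to 58.3) in the library labelled fl/fl and 55.5% (53.8 to 57.2) in the library labelled +/fl. Both libraries had this shift towards Chd4 in tuft-like cells.

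Hdac1 took 62.8% (59.8 to 65.8) of its pair in tuft-like cells labelled fl/fl and 59.8% (57.9 to 61.6) in those labelled +/fl, against 44.6% (42.0 to 47.2) and 42.1% (39.6 to 44.8) in immature-like cells. Mta2 took 82.2% (78.7 to 85.2) and 77.7% (75.6 to 79.8) of its pair in tuft-like cells, against 54.6% (51.0 to 58.1) and 57.3% (53.8 to 60.8) in immature-like cells, with the library labelled fl/fl first. Both pairs had a higher share of Hdac1 or Mta2 in tuft-like than in immature-like cells. The Mta share leaves out the third scaffold gene, Mta3, which had 42.7 CPM labelled fl/fl and 45.4 CPM labelled +/fl there. Mbd3 moved the other way, with 38.0% (35.0 to 41.0) of the Mbd3 and Mbd2 UMIs in tuft-like cells labelled fl/fl and 28.6% (27.3 to 30.02) in those labelled +/fl, against 55.1% (52.8 to 57.3) and 58.6% (56.4 to 60.8) in immature-like cells. Gatad2a, at 38.1% (34.5 to 41.7) and 36.6% (34.7 to 38.6) in tuft-like cells and 36.5% (33.6 to 39.3) and 42.4% (39.6 to 45.3) in immature-like cells, had no such step in the library labelled fl/fl. Steps between these 2 classes were common: 53.1% of 13728 genes, and 8 of the 10 members, had levels apart in the same direction in both libraries.

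**Figure D2:**
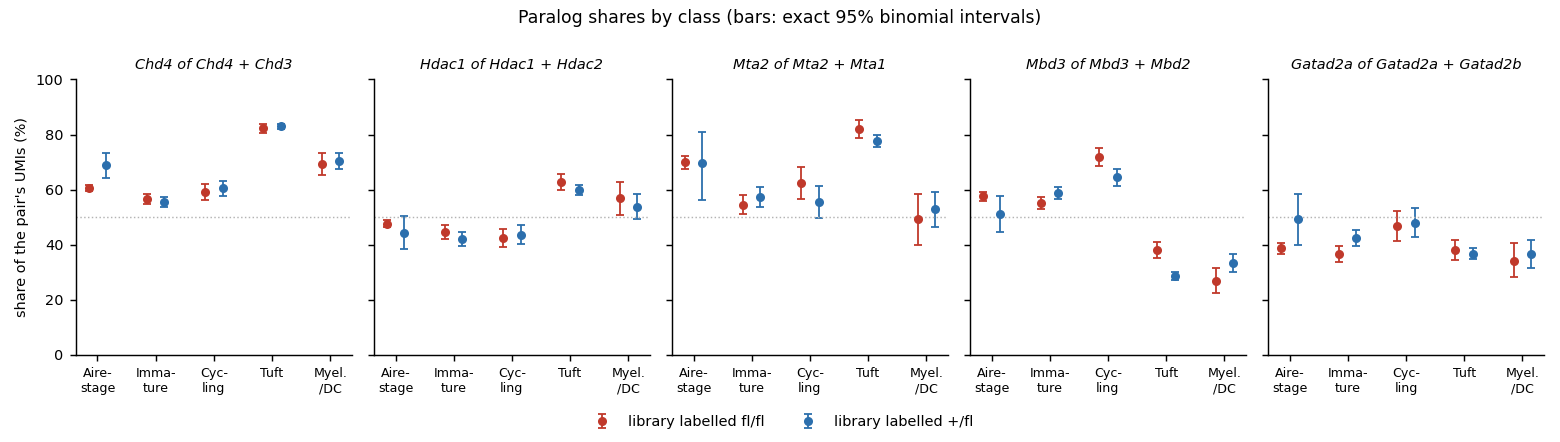
Share of each paralog pair's UMIs taken by the first-named gene (percent, vertical axis) in 5 classes, with the library labelled fl/fl in red to the left of the library labelled +/fl in blue and exact 95% binomial intervals as bars. Tuft-like cells have the highest share of Chd4 (82.3% and 83.0%) and of Mta2 (82.2% and 77.7%), while the share of Mbd3 is highest in cycling-like cells (72.0% and 64.4%). The Mta2 share of Aire-stage-like cells labelled +/fl, 69.5% (56.1 to 80.8) from 59 UMIs, overlaps the tuft-like one.

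In cycling-like cells Mbd3 took 72.0% (68.7 to 75.1) of its pair in the library labelled fl/fl and 64.4% (61.3 to 67.4) in the library labelled +/fl, and in myeloid and dendritic-like cells 26.8% (22.3 to 31.6) and 33.3% (29.98 to 36.7). The Mbd pair therefore had the widest range of the 5. It was also the 1 pair whose share differed between the libraries beyond counting error in tuft-like cells. Over all kept cells it was 52.4% (51.4 to 53.3) in the library labelled fl/fl and 43.5% (42.6 to 44.3) in the library labelled +/fl. The Chd share over all kept cells also differed, at 63.3% (62.6 to 63.9) in the library labelled fl/fl and 70.7% (70.1 to 71.3) in the library labelled +/fl, as it did in Aire-stage-like cells, at 60.5% (59.5 to 61.6) and 68.9% (64.4 to 73.1). Within each of the other 4 classes its intervals overlapped between the libraries. The makeup of the libraries also differed. Tuft-like cells were 10.6% of kept cells labelled fl/fl and 36.8% of those labelled +/fl. Aire-stage-like cells were 40.5% of kept cells labelled fl/fl and 2.76% of those labelled +/fl. The part of this makeup in the Chd share was not tested.

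Over all kept cells the library labelled fl/fl had the lower level for most members. Mbd2 had 63.0 CPM (61.2 to 64.7) in the library labelled fl/fl and 112 CPM (109.8 to 115) in the library labelled +/fl, a ratio of 0.560 (0.541 to 0.581). Chd4 had 168 CPM (165 to 171) in the library labelled fl/fl and 229.5 CPM (226 to 233) in the library labelled +/fl, a ratio of 0.732 (0.716 to 0.750). Neither pair of intervals overlapped. Mta1 had 16.2 and 21.8 CPM, Mta2 34.3 and 43.8 CPM, Mbd3 69.3 and 86.4 CPM, Gatad2a 32.5 and 39.3 CPM, and Gatad2b 47.2 and 58.3 CPM, with the library labelled fl/fl first in each. These 5 also had intervals below 1, with ratios between 0.744 and 0.828. Chd3 had 97.6 and 95.3 CPM and Hdac1 74.8 and 72.8 CPM, with overlapping intervals. Hdac2 had 76.2 CPM (74.3 to 78.1) in the library labelled fl/fl and 72.1 CPM (70.1 to 74.2) in the library labelled +/fl, a ratio of 1.06 (1.02 to 1.10). In sums this deep most genes had an interval without 1. Of all genes 75.2% did in either direction and 33.8% lay lower under the fl/fl label, beside 8 and 7 of the 10 members.

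On the log2 scale with 1 CPM added, 7 members were lower and 3 higher, with a median of -0.31 against 0.037 over 18392 genes with at least 50 UMIs. Of those 18392 genes 46.4% were lower. Of the 10 members 1, Mbd2 at -0.83, was past 1.5-fold, in a comparison where 27% of all genes were past it in either direction and 6.92% were lower by that fold. Under scaling by TMM factors, which shifts all genes by -0.10, Chd3, Hdac1 and Hdac2 also turned lower and the members' median was -0.41. The makeup of the libraries also differed. The shares of tuft-like and Aire-stage-like cells are given above. Cluster 6 was 0.795% of kept cells labelled fl/fl and 17.8% of those labelled +/fl. With every cluster set to its pooled share of cells, the members' median was -0.15, Chd4 was at -0.24, Mbd2 was at -0.34, and no member was past 1.5-fold.

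**Figure D3:**
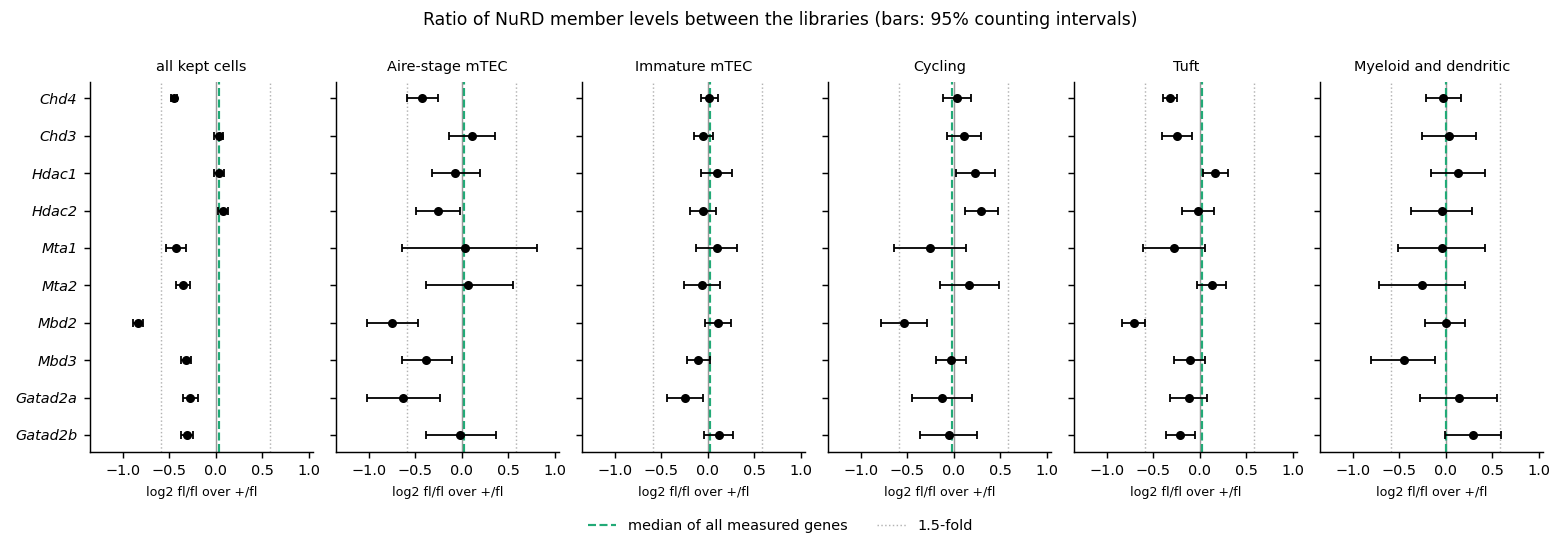
Log2 ratio of each member's level, library labelled fl/fl over library labelled +/fl (horizontal axis), over all kept cells and in 5 classes, with 95% counting intervals as bars, the median of all measured genes as a green dashed line and 1.5-fold in either direction as dotted lines. Mbd2 lies left of the 1.5-fold line over all kept cells and in Aire-stage-like and tuft-like cells, and near 0 in immature-like and in myeloid and dendritic-like cells.

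Within tuft-like cells the members' median was -0.16, against 0.027 over 12214 genes. Higher levels under the fl/fl label were found for 2 members, Hdac1 (ratio 1.12, 1.02 to 1.23) and Mta2 (1.09, 0.979 to 1.22), and 8 were lower. Of the 12214 genes 46.2% were lower. Mbd2 was past 1.5-fold at a ratio of 0.610 (0.560 to 0.664), and it was the 1 member of 10 to be so, where 17.3% of all genes were past it in either direction and 7.21% were lower by that fold. Chd4 followed at 0.802 (0.761 to 0.844), Chd3 at 0.844 (0.753 to 0.945) and Gatad2b at 0.864 (0.776 to 0.962). The intervals of Hdac2, Mta1, Mbd3, Gatad2a and, as given, Mta2 included 1, so 5 of 10 members lay apart from 1, where 44.9% of all genes did. The 12 tuft markers summed to 10588 CPM labelled fl/fl and 10523 CPM labelled +/fl. These markers name the class, so their like sums do not show that the classes were alike. Other measures did move with the difference. The 8 Aire-stage markers summed to 515 CPM in tuft-like cells labelled fl/fl and 322 CPM in those labelled +/fl, and 7 of the 7 measured were higher in those labelled fl/fl. The 8 secretory markers summed to 411 CPM labelled fl/fl and 196 CPM labelled +/fl. The heat shock genes Hspa1a and Hspa1b, which dissociation of tissue can induce, had 379 and 344 CPM labelled fl/fl, against 111 and 108 CPM labelled +/fl. The list of 16 dissociation stress genes that holds them did not move as a whole. In the tuft-like cluster 0, 10 were higher and 6 lower under the fl/fl label, and in cluster 12, 8 were higher and 8 lower. The median depth was 6508.5 UMIs per cell labelled fl/fl and 9300 labelled +/fl. Their part in the result was not tested.

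The tuft-like class mixed 2 clusters in unlike proportions, so each was also taken alone. Cluster 0 had 559 cells in the library labelled fl/fl and 603 in the library labelled +/fl, and cluster 12 had 253 and 1198. Mbd2 had 105 CPM (96.4 to 114) in cluster 0 labelled fl/fl and 172 CPM (163 to 182) in cluster 0 labelled +/fl. It had 82.4 CPM (67.7 to 99.4) in cluster 12 labelled fl/fl and 159 CPM (152 to 167) in cluster 12 labelled +/fl. The ratios, 0.609 (0.551 to 0.674) and 0.518 (0.423 to 0.628), were past 1.5-fold in both, where 6.2% of genes in cluster 0 and 11.5% in cluster 12 were lower by that fold. Chd4 was lower under the fl/fl label in both clusters, with ratios of 0.851 (0.796 to 0.909) and 0.9002 (0.815 to 0.992). Hdac1 was higher in cluster 0 (95.8 CPM labelled fl/fl and 70.8 CPM labelled +/fl, ratio 1.35, 1.196 to 1.53), and its ratio in cluster 12, 1.10 (0.921 to 1.31), included 1.

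The share of cells with a UMI was also taken for Mbd2. It is drawn from the same UMIs of the same cells, so it is a second description and not separate evidence. After each cell was thinned to 2000 UMIs, 15.8% (13.3 to 18.6) of 747 tuft-like cells labelled fl/fl had an Mbd2 UMI, against 25.04% (23.0 to 27.1) of 1741 labelled +/fl. Without thinning, where the depth per cell also differs, the shares were 45.0% in the library labelled fl/fl and 65.9% in the library labelled +/fl. For Chd4 the thinned shares were 41.0% (37.4 to 44.6) labelled fl/fl and 49.3% (47.0 to 51.7) labelled +/fl, and the unthinned ones 77.6% and 88.6%. Both thinned pairs stood apart. Free RNA can add UMIs to such shares, and no class without these genes was present to measure it.

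Aire-stage-like cells express Aire and Fezf2, which drive the expression of tissue antigens. Only 135 of these cells were in the library labelled +/fl, so their intervals were wide. The members' median ratio was -0.16, against 0.025 over 16025 genes. Mbd2 (0.594, 0.493 to 0.722) and Gatad2a (0.644, 0.496 to 0.851) were past 1.5-fold, which is 2 of 10, where 33% of all genes were past it in either direction and 11.8% were lower by that fold. Gatad2a had 23.2 CPM (21.7 to 24.8) in the library labelled fl/fl and 36.0 CPM (27.5 to 46.3) in the library labelled +/fl, from 60 UMIs. Chd4 had 139.7 CPM (136 to 144) in the library labelled fl/fl and 187 CPM (167 to 209) in the library labelled +/fl, a ratio of 0.746 (0.666 to 0.839). Mbd3, at 0.768 (0.641 to 0.928), and Hdac2, at 0.836 (0.714 to 0.986), were also lower, and the other 5 included 1. Intervals without 1 were thus found for 5 of 10 members, where 30.5% of all genes had one. Under 14 alternative settings Mbd2 was past 1.5-fold in 10 and Gatad2a in 4, with Gatad2a at 1.12 on the log2 scale, higher in the library labelled fl/fl, when cells were thinned, and Hdac2 kept its direction in 11.

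Other measures moved with the Aire-stage-like values. The 8 Aire-stage markers that name the class summed to 2670.4 CPM labelled fl/fl and 1623 CPM labelled +/fl. The 8 immature markers summed to 1112 CPM labelled fl/fl and 2256 CPM labelled +/fl, and 0 of 8 were higher in the cells labelled fl/fl. The 7 microfold markers summed to 1081 CPM labelled fl/fl and 2039 CPM labelled +/fl. In the cells labelled +/fl both sums exceeded that of the class's own markers. The 10 T-lineage markers summed to 74.7 CPM labelled fl/fl and 241 CPM labelled +/fl. The median depth was 10254 UMIs per cell labelled fl/fl and 5317 labelled +/fl. Their part in the result was not tested. Mbd2 also differed between the 2 clusters of the class. In cluster 2 it had 32.1 CPM (29.97 to 34.3) labelled fl/fl and 70.4 CPM (53.4 to 91.3) labelled +/fl, from 60 cells, and in cluster 3 it had 66.6 CPM (61.9 to 71.6) labelled fl/fl and 71.1 CPM (54.4 to 91.4) labelled +/fl, from 75 cells. The difference between the libraries stood apart in cluster 2, and in cluster 3 the intervals overlapped.

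Immature-like cells had nearly equal totals, with 10432989 UMIs labelled fl/fl and 10656371 labelled +/fl. The members split 5 higher and 5 lower, where 44.8% of 11826 genes were lower. Their median was -0.015, against 0.029 over those 11826 genes. Of the members 0 of 10 were past 1.5-fold, where 7.39% of all genes were past it in either direction. Chd4 had 179 CPM (171 to 187) in the library labelled fl/fl and 177 CPM (169 to 185) in the library labelled +/fl, a ratio of 1.01 (0.949 to 1.08). Mbd2 had 81.8 CPM (76.4 to 87.4) labelled fl/fl and 75.7 CPM (70.6 to 81.1) labelled +/fl, a ratio of 1.08 (0.979 to 1.19). The Mbd2 interval lies above the tuft-like one, so the ratio between the libraries differed between these 2 classes beyond counting error. Gatad2a was the 1 member of 10 apart from 1 here, where 32% of all genes were, with 39.6 CPM (35.9 to 43.6) labelled fl/fl and 46.8 CPM (42.8 to 51.1) labelled +/fl. The summed level of the 10 was 818 CPM labelled fl/fl and 821 CPM labelled +/fl.

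Cycling-like cells had a members' median of 0.0032, against -0.019 over 10070 genes, and 0 of 10 past 1.5-fold, where 12.7% of all genes were past it in either direction. Hdac2 (ratio 1.23, 1.08 to 1.40) and Hdac1 (1.17, 1.01 to 1.36) were higher under the fl/fl label. Mbd2 was lower, with 53.6 CPM (46.8 to 61.2) labelled fl/fl and 77.7 CPM (69.8 to 86.3) labelled +/fl, a ratio of 0.690 (0.580 to 0.819). These 3 of 10 lay apart from 1, where 27.8% of all genes did. In myeloid and dendritic-like cells the median was -0.014, against -0.00072 over 8861 genes, and 0 of 10 were past 1.5-fold, where 16.2% of all genes were past it in either direction. Mbd3 was the 1 member of 10 with an interval without 1 there, where 27.4% of all genes had one, with 42.0 CPM labelled fl/fl and 57.5 CPM labelled +/fl, a ratio of 0.731 (0.574 to 0.924). The ratio of Mbd2 was 0.998 (0.859 to 1.16) in these blood-derived cells.

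Taken by single clusters, the 15 with at least 200000 UMIs in both libraries widened the range of some members. Chd4 was highest in the tuft-like cluster 12, at 343 CPM (312 to 376) labelled fl/fl and 381 CPM (370.0 to 393) labelled +/fl, and lowest in cluster 11, which is led by microfold and enterocyte genes such as Ccl20 and Fabp1, at 105 and 99.8 CPM. T-lineage-like cells (cluster 9) had 335 CPM (289 to 387) labelled fl/fl, which overlapped cluster 12, and 280.5 CPM (248 to 316) labelled +/fl, below cluster 12 and the tuft-like class. They were also the highest cluster in both libraries for Hdac1 (125 and 146 CPM), Gatad2a (76.7 and 64.6 CPM) and Gatad2b (99.9 and 107 CPM). In cluster 8, led by kallikrein genes of the Klk1b family, Chd4 had 222 CPM (208 to 237) labelled fl/fl and 353 CPM (301 to 411) labelled +/fl, from 33 cells. Mta1 was lowest in cluster 11 in both libraries, at 8.004 CPM labelled fl/fl and 6.56 CPM (2.13 to 15.3), from 5 UMIs, labelled +/fl.

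**Figure D4:**
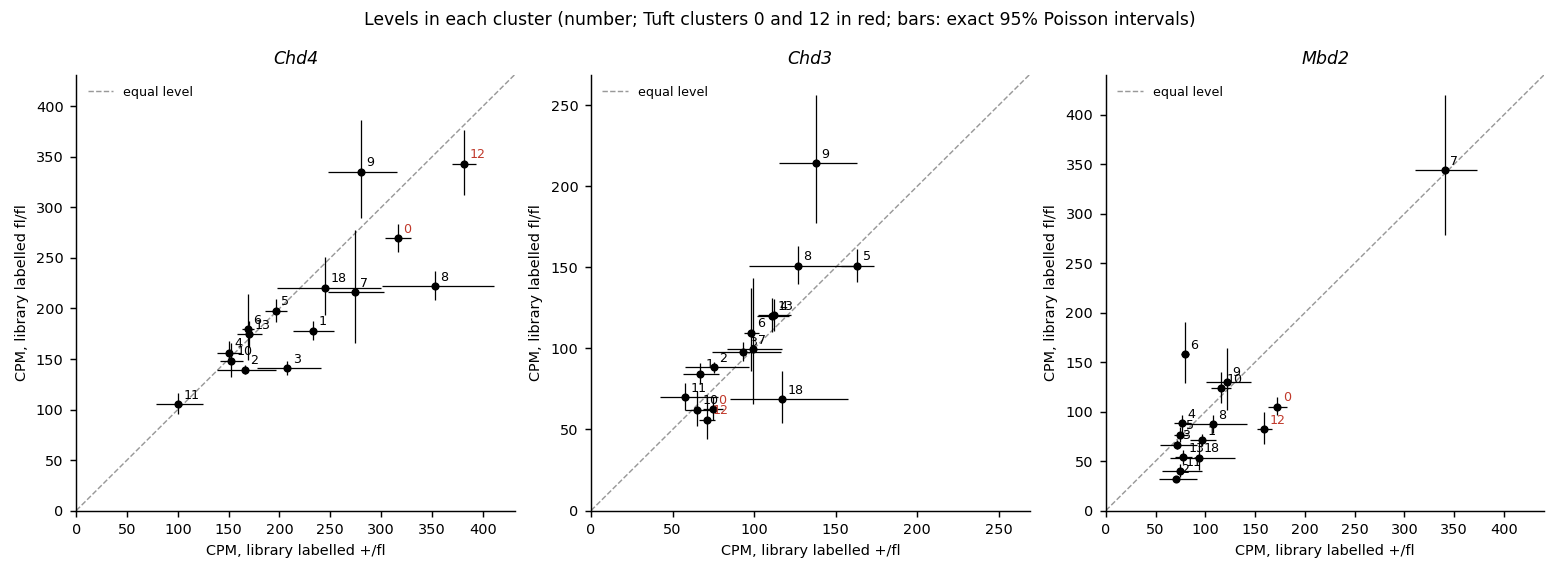
Level of Chd4, Chd3 and Mbd2 (CPM) in each of 15 clusters, with the library labelled fl/fl on the vertical axis and the library labelled +/fl on the horizontal axis, cluster numbers beside the points, exact 95% Poisson intervals as bars and equal levels as a dashed line. Clusters 0 and 12 (tuft-like, red numbers) lie below the line for Mbd2, cluster 7 lies apart near 344 and 341 CPM, and cluster 6 lies above it.

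Over the clusters the highest level of Mbd2 was 10.7 times the lowest in the library labelled fl/fl, the widest range of the members there, and 4.84 times in the library labelled +/fl. The 7.78-fold range of Mta1 there rests on 5 UMIs in its lowest cluster. The highest was cluster 7 in both, at 344 CPM (279 to 420.0) from 20 cells labelled fl/fl and 341 CPM (311 to 373) from 66 cells labelled +/fl. That cluster carries skeletal muscle genes such as Myog and Acta1 together with all 12 tuft markers, and stayed unnamed. The scatter of levels by cluster also shows that the Mbd2 ratio was not lower everywhere. In cluster 6, unnamed and led by Fcrls and Gpx6, Mbd2 had 158 CPM (129 to 190) labelled fl/fl, from 61 cells, and 79.1 CPM (75.05 to 83.4) labelled +/fl, from 872 cells. That is a ratio of 1.99 (1.62 to 2.43), in the direction opposite to the tuft-like clusters.

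Of 8 further subunits and accessory proteins, the histone chaperone Rbbp7 had 226 CPM (223 to 230) in the library labelled fl/fl and 112 CPM (109.9 to 115) in the library labelled +/fl, a ratio of 2.01 (1.96 to 2.07). On the log2 scale with 1 CPM added it was the 1 of the 8 past 1.5-fold, where 27% of all genes were past it in either direction. Chd5, at a level near 1 CPM, had a plain ratio of 2.41 (1.53 to 3.92) from 76 UMIs labelled fl/fl and 26 labelled +/fl. Rbbp7 is X-linked and the libraries differ in sex-linked genes. Within immature-like cells its ratio was 1.002 (0.925 to 1.08), from 117 CPM in each library, whereas in tuft-like cells it was 1.499 (1.38 to 1.63), from 137 CPM labelled fl/fl and 91.7 CPM labelled +/fl. The tuft-like clusters did not share that difference. Cluster 0 had 152 CPM (141 to 163) labelled fl/fl and 99.6 CPM (92.6 to 107) labelled +/fl, and cluster 12 had 80.9 CPM (66.3 to 97.8) labelled fl/fl and 86.3 CPM (80.9 to 92.0) labelled +/fl, with overlapping intervals. By cluster it was highest in cluster 11 of the library labelled fl/fl, at 547 CPM (524 to 572), where the library labelled +/fl had 215 CPM (184 to 251). Its homologue Rbbp4 had 92.4 CPM labelled fl/fl and 116 CPM labelled +/fl, and was highest in cycling-like cells in both, at 144 and 147 CPM.

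The third scaffold gene, Mta3, followed Mta2 in being highest in tuft-like cells, with 42.7 CPM (37.8 to 48.0) labelled fl/fl and 45.4 CPM (42.4 to 48.6) labelled +/fl. Cdk2ap1, a small subunit, had 93.9 and 106 CPM over all kept cells, and its relative Cdk2ap2 had 106 and 80.5 CPM, with the library labelled fl/fl first. Pwwp2a, which brings deacetylase modules to a histone variant, had 43.9 CPM (39.0 to 49.3) in tuft-like cells labelled fl/fl and 62.5 CPM (59.0 to 66.2) in those labelled +/fl. Chd5, a remodeller known from neurons, stood at 0.939 CPM labelled fl/fl and 0.390 CPM labelled +/fl over all kept cells. Of the 8 genes 3 were higher and 5 lower over all kept cells, and their median on the log2 scale was -0.08. Of all genes 46.4% were lower there.

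Other chromatin complexes give the setting for these values. Over all kept cells the 17 BAF remodeller genes split 2 higher and 15 lower with a median of -0.24. Of these 0 were past 1.5-fold, where 27% of all genes were past it in either direction. The 9 CoREST genes had a median of -0.20, the 8 other deacetylases -0.18, the 5 other methyl-binding proteins -0.18, the 8 measured factors that recruit NuRD -0.16, the 6 NCoR genes -0.12, the 6 other CHD remodellers -0.04, the 11 Sin3 genes -0.02 and the 7 genes of Polycomb repressive complex 2 0.03. More lower than higher members were thus also found in other complexes, such as CoREST (7 of 9 lower) and Sin3 (7 of 11 lower). As given, 46.4% of all genes were lower over all kept cells. The 4 genes of ChAHP, which shares Chd4, had a median of -0.38, and the 2 Ctbp co-repressors -0.41. In tuft-like cells the medians were -0.13 for BAF, -0.17 for CoREST and -0.01 for Sin3, against -0.16 for the NuRD members. The Ikaros family itself had 1 gene higher and 4 lower over all kept cells, with Ikzf3 higher and Ikzf1 and Ikzf4 lower by more than 1.5-fold. As given, 27% of all genes were past that fold in either direction. In tuft-like cells Ikzf1 had 18.7 CPM labelled fl/fl and 57.0 CPM labelled +/fl. The 15 cell cycle genes had a median of -0.16 and the 16 dissociation stress genes 0.02.

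For each member the genes with the most similar pattern over the 10 points (5 classes in 2 libraries) were taken from 6420 genes with at least 20 CPM on average. Chd4 was most like Gnl1 (Pearson r of 0.976), Eif5b and Egln2, and Chd3 was most like Nrtn (0.971), Isl1 and Slc39a1. Hdac1 was most like Oard1 (0.963), Pcmt1 and Nap1l4, and Hdac2 like Timm10 (0.974), Yrdc and Dhrs4. Mta1 was most like Mrpl30 (0.933), Dtnbp1 and Lrrcc1, and Mta2 like Tmem263 (0.977), Gpat4 and Gna12. Mbd2 was most like Kdm6b (0.947), Cd44 and Kansl1, and Mbd3 like Smarcb1 (0.991), Nop58 and Naa15. Gatad2a was most like Top1 (0.935), Nras and Pkn2, and Gatad2b like Etnk1 (0.985), Gpatch8 and Maf1. Among the members the closest pairs were Chd4 with Mta2 (0.854), Chd3 with Mbd3 (0.819) and Hdac2 with Mbd3 (0.812), and the most opposed was Hdac2 with Mbd2 (-0.73). Points of 1 library share its depth and preparation, so these values are descriptions over 10 points that are not independent.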

How the data were processed

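The authors deposited unnormalised UMI counts for each gene and barcode. The submitters' processing notes name Cell Ranger and Seurat, with no roles. Per the file headers the matrix software version is 3.1.0. The build behind the counts is not given in the sources used here. Positions come from GENCODE M21 by Ensembl identifier and promoters from RefSeq (GRCm38.p6), for names and places alone.

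Barcodes needed 500 detected genes, 1000 UMIs and a mitochondrial share of 15% or less. Scrublet (scanpy 1.11.5, run per library) marked 0 and 1 cells by its own threshold, below 0.5% of cells, so the highest doublet scores were removed at 0.8% per 1000 cells, 539 cells (6.57%) labelled fl/fl and 208 (4.08%) labelled +/fl. The kept cells held 80897462 UMIs labelled fl/fl and 66675011 labelled +/fl. Both libraries were clustered together (2000 variable genes without the members, 30 principal components, 15 neighbours, Leiden resolution 1, igraph 0.11.9). A cluster took the name of the best of 21 marker lists if at least 3 of its genes were in at least 10% of cells and 2-fold above the other clusters, by a score over the list whose form was set after the clusters were seen. A name is likeness only. Clusters 1, 6, 7, 11 and 17 stayed unnamed, and cluster 8 was named by its neuroendocrine list but is given by number, as its leading genes are kallikreins.

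UMIs were summed per class and library and divided by the total (CPM). Ratios divide the level labelled fl/fl by the level labelled +/fl, with conditional binomial intervals, and log2 ratios add 1 CPM. Background shares count genes past 1.5-fold, or with an interval without 1, among those with at least 50 UMIs over both libraries. Thinning to 2000 UMIs left out 797 cells labelled fl/fl and 324 labelled +/fl. Named genes are the 10 members, the genes of the lists used, and the 3 most similar genes per member. The members and all lists were chosen with earlier results of these data known. The summing and the ratios were tested on simulated counts. Alternatives were a stricter cell filter, doublets kept, other scalings (TMM, edgeR 4.0.16 in R 4.3.3, among them), thinning, equal cluster shares and other clusterings.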

Additional observations from a re-analysis of the deposited data

How the results depend on the processing

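No paired analysis was possible because the groups share only 1 replicate number, and leaving out a library leaves no comparison. Of 161 alternative values of the main summaries, 141 stayed within the limits set for a change and 20 moved. For single members a move means a shift in the log2 ratio by more than its counting interval reaches to one side, and a reversal a change of sign of a ratio past 1.5-fold. Of 760 ratios of single members 84 moved and 1 reversed by these rules, and smaller ratios changed sign more often, as Mta1, Mta2 and Hdac1 did in Aire-stage-like cells, where each kept its sign in 7 of 14. Over all kept cells the members' median was -0.41 with TMM factors and -0.15 with each cluster at its pooled share of cells, where 0 members were past 1.5-fold in place of 1. In Aire-stage-like cells, where 2 were past it, 1 was with the stricter cell filter, with TMM factors, without the most abundant genes, at pooled cluster shares and at resolution 0.5 (Mbd2 in each), with doublets kept (Gatad2b) and with the mean of per-cell CPM (Mbd3), 4 were with marker genes left out of the clustering and 6 when thinned. Gatad2a in that class was reversed at 1.12 when thinned, from 100 cells labelled +/fl. In cycling-like cells, where 0 were past it, 1 was (Mbd2) with doublets kept, with the libraries clustered apart and with marker genes left out, 3 were when thinned, and the thinned median was 0.34. In tuft-like cells 0 in place of 1 were past it with the libraries clustered apart, where Mbd2 was at -0.51. In myeloid and dendritic-like cells, where 0 were past it, 1 was with the stricter filter (Mbd3) and 2 when thinned. No share of all genes past 1.5-fold was taken under these settings, so the counts are not read as results about the members. Thinned Aire-stage-like values labelled +/fl rest on few UMIs. Of the 100 cells, 24% had a Chd4 UMI, 2% a Gatad2a UMI and 1% an Mta1 UMI. Causes were not tested. Mbd2 stayed lower under the fl/fl label in 13 of 13 alternatives in tuft-like cells (-0.80 to -0.51) and in 14 of 14 in Aire-stage-like cells (-1.20 to -0.06), and stayed higher in immature-like cells (0.06 to 0.17). The Aire-stage-like class held 58 to 283 cells labelled +/fl, and 1007 with cluster 6 added. The highest class of Chd4, Chd3, Hdac2, Mta2 and Mbd3 was the same in both libraries under 6 alternatives. That of Hdac1 and Mta1 was not when thinned, nor that of Mta1 with doublets kept. The step between tuft-like and immature-like cells lay beyond counting error in both libraries for 4 of the 5 paralog pairs, and for 4 under each of the 3 alternatives tried.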
